A study of Mus musculus with 26 samples.

Results

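The genes described here encode enzymes that write or remove chemical marks on histones and DNA. They were chosen as a list of 51 symbols, matched to Ensembl identifiers through the GRCm38 annotation, and all 51 were found among the 55487 genes of the deposited table. The 51 were grouped here into 7 classes, each named for what most of its members do, with Jmjd6 placed among the lysine demethylases. These were 14 lysine demethylases, 9 zinc-dependent deacetylases, 6 sirtuins, and 4 DNA methyltransferases and TET dioxygenases. The others were 6 members of the H3K4 methyltransferase family, 8 methyltransferases of H3K27, H3K36 or H3K9, and 4 acetyltransferases. All 51 passed the filter on low counts.

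RNA came from lung macrophages of mice, labelled as resident alveolar macrophages (AM) or bone marrow-derived macrophages (BM). Day 0 stands for untreated lungs and days 1, 3 and 7 for the time since lipopolysaccharide (LPS, a bacterial wall component that inflames the airways) was given into the trachea. The 26 libraries comprise 3, 4, 3 and 4 of AM at days 0, 1, 3 and 7, and 5, 4 and 3 of BM at days 1, 3 and 7. The untreated AM columns are named Young, with no age given, and no other label gives a strain, age, sex or genotype, nor whether each replicate is an animal of its own, so p-values measure the spread between these libraries, which may be technical.

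Histone acetylation by enzymes such as p300 and CBP accompanies open, active chromatin, and deacetylases and sirtuins remove it. Methyl marks depend on position: methylation of H3K4 accompanies active promoters and enhancers, that of H3K36 the bodies of transcribed genes, and that of H3K27 and H3K9 repressed chromatin, while lysine demethylases erase these marks. DNMT enzymes add methyl groups to cytosines in DNA and TET enzymes oxidise them. In macrophages the H3K27 demethylase Kdm6b is known as a gene that responds to LPS, and Tet2 and Hdac3 as regulators of inflammatory genes.

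Total counts ran from 9176202 to 80816742 per library, with AM day 0 the deepest group. Summed over 7 alveolar macrophage markers, levels were 14060 to 18720 CPM (counts scaled to a fixed library total, the usual CPM unit) in untreated AM. BM libraries held 893 to 1668 CPM at day 1 and 1630 to 4044 at day 3, and BM_day7.1, BM_day7.2 and BM_day7.3 held 12640, 13360 and 2315 CPM. A sum over 6 monocyte and recruited macrophage markers was also taken. In AM it was 54.3 to 84.4 CPM at day 0 and 332 to 546 at day 1. It was 928 to 2669 CPM at day 3 and 64.3 to 143 at day 7. In BM it was 953 to 1558 CPM at day 1, 3140 to 4513 at day 3 and 1691 to 1781 at day 7. BM_day3.1 stood apart by 27530 CPM of fibroblast and endothelium markers and 9126 genes detected, and BM_day1.3 by 9684 genes detected. Most of the 27530 CPM was Col1a1 and Col1a2 (up to 14980 and 12120 CPM in BM day 3), while the endothelium marker Pecam1 reached at most 44.8 CPM. Neutrophil markers summed to 3177 CPM in BM_day3.1 and to 574.7, 474.4 and 438.5 CPM in BM_day3.2, BM_day3.3 and BM_day3.4. Y-linked RNA differed between groups: 146 to 227 CPM in AM before day 7, 7.75 to 38.4 CPM for BM at day 1, 0.0479 to 169 CPM for BM at day 3, and no more than 4.09 CPM in either cell type at day 7. In the label descriptions each library also has an identifier. Its leading number is found in no other group for AM day 0, and likewise for BM day 1, so group and prefix cannot be told apart.

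The promoter-side sequences below belong to 4 genes that were higher in BM than in AM at day 1 and are shown because members of several classes moved together there. Each line is the 250 bases before the RefSeq start (GRCm38.p6, minus strand in all 4, written 5′ to 3′ along the gene). They lie at chr6:39206774-39207023 for Kdm7a, chr15:98871206-98871455 for Kmt2d, chr11:102230173-102230422 for Hdac5 and chr3:133544391-133544640 for Tet2. Capitals mark matches, on either strand, to the GC box GGGCGG and the ETS core CCGGAAG.
Kdm7a: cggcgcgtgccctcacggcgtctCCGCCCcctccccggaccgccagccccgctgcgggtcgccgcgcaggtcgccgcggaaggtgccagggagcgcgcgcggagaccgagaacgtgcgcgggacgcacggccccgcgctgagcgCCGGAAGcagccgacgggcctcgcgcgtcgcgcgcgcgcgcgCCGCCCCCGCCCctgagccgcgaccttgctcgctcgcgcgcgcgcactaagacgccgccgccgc
Kmt2d: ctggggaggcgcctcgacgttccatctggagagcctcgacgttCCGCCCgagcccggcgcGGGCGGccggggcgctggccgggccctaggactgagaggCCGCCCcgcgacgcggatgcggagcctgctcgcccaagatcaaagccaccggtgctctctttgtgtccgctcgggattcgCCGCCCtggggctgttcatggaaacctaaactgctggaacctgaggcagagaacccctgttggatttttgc
Hdac5: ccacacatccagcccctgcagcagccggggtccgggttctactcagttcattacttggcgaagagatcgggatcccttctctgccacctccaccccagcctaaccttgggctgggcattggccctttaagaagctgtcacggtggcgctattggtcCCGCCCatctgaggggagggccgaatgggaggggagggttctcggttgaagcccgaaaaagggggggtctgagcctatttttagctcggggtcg
Tet2: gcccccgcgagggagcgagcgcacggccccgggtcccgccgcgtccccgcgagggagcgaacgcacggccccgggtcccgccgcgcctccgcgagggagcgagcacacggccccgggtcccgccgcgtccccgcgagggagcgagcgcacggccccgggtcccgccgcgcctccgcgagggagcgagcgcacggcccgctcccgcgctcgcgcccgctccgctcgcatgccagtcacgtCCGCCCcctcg

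All 4 windows hold a GC box: 3 in Kdm7a, 4 in Kmt2d, and 1 each in Hdac5 and Tet2. Kdm7a also holds the ETS core. RefSeq windows were found for 40 of the 51 genes, 59 windows in all, and not for the other 11, Kdm6b among them. GGGCGG was present in 59.3% of the 59 windows and in 32.7% of the 32851 windows of all genes, with a median GC content of 63.6% and 52.4%. The ETS core stood in 11.9% against 6.91%, and the AP-1 letters TGANTCA in 6.78% against 6.75%. The cAMP response letters TGACGTCA (1.55% of all windows) and the NF-kB motif (0.356%) matched none of the 59, and the PU.1 letters GAGGAAGT matched 1 (2.44% of all windows). Both strands were searched for each motif, and no motif contains another. These matches describe letters in the windows and not sites of binding.

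Chromatin enzyme transcripts were higher in BM-derived than in alveolar macrophages 1 day after LPS. Of the 51 genes, 26 were higher and 0 lower in BM by the edgeR quasi-likelihood test with Benjamini-Hochberg adjustment over 17143 genes (called at an adjusted p under 0.05). Among all tested genes 29% were called, 15.2% as higher and 13.8% as lower. The median log2 fold change was 1.01 over the 51 genes and 0.06 over all tested genes. In 25 of the 26 called genes no BM library overlapped an AM library. The share without overlap among all called genes is not given here, so this count has no background to be read against. In these bulk samples fewer cells of a type and less RNA per cell cannot be told apart.

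By class, 9 of 14 lysine demethylases and 5 of 6 members of the H3K4 family were higher. So were all 4 DNA methyltransferases and TET dioxygenases, 3 of 4 acetyltransferases, and Ezh1, Setd2 and Nsd1 among the 8 methyltransferases of H3K27, H3K36 or H3K9. Among the zinc-dependent deacetylases 2 of 9 were higher (Hdac5 and Hdac7), and by edgeR 0 of 6 sirtuins were called (0 also at an unadjusted p under 0.05). The sirtuins ran from −0.66 to 0.14 on the log2 scale, and whether classes differ from each other was not tested.

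**Figure D1:**
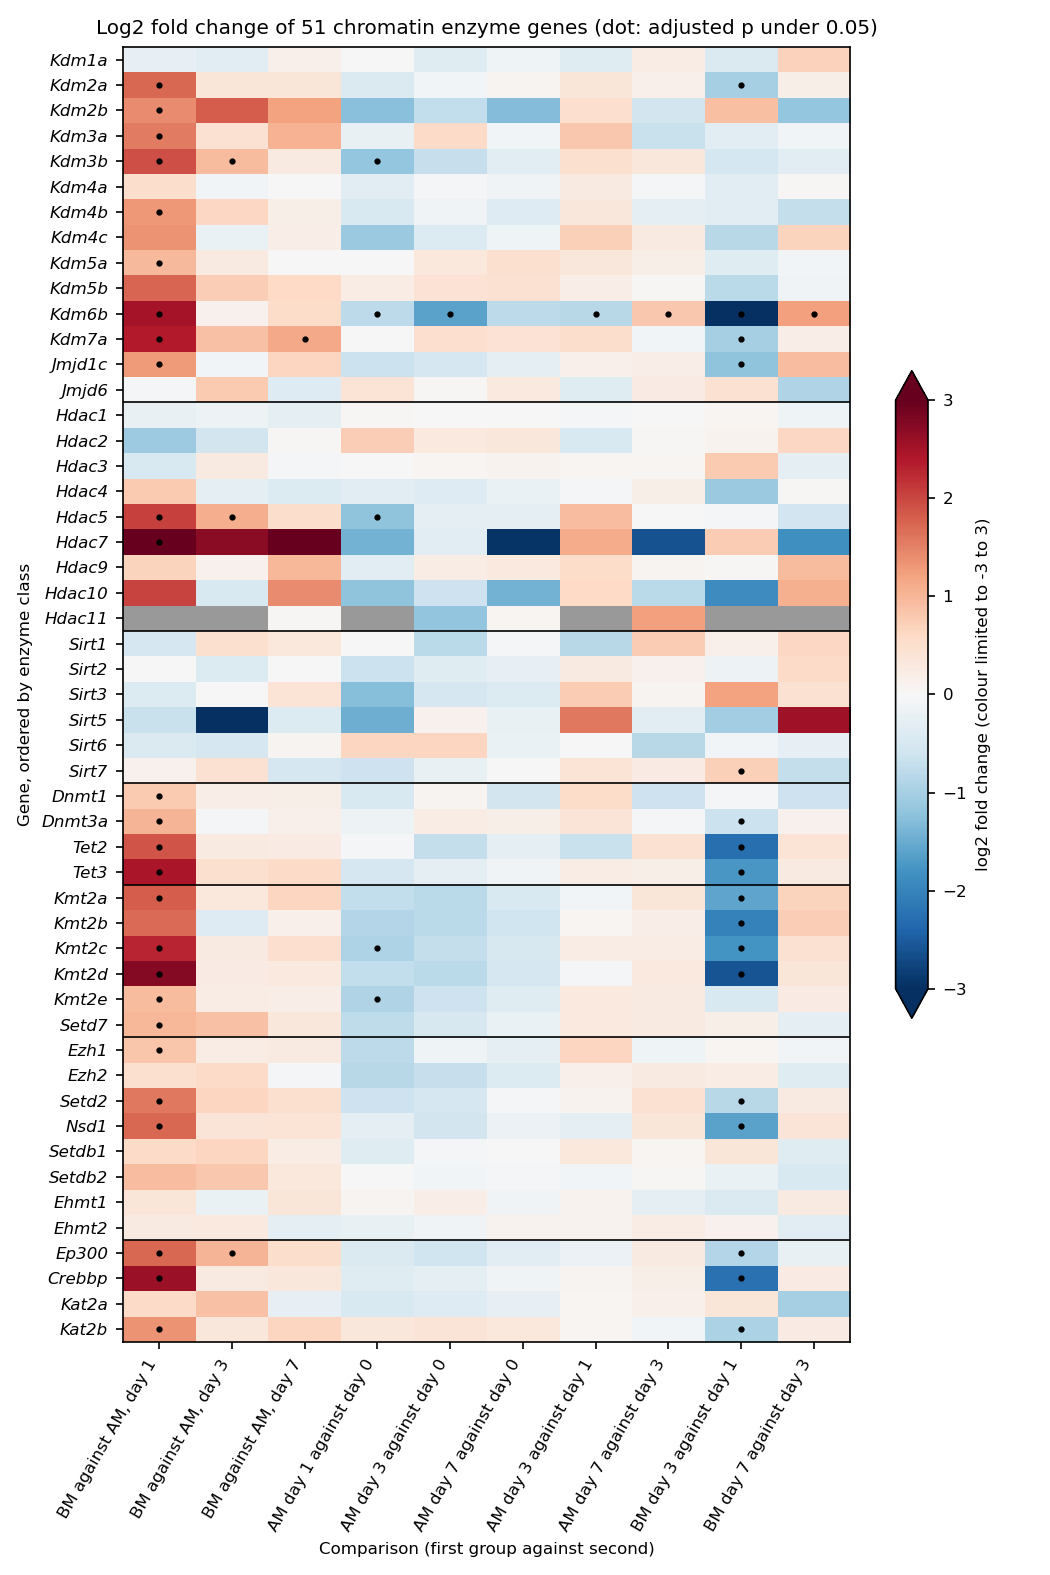
Log2 fold change of each of the 51 genes (rows, grouped by enzyme class between lines) in 10 comparisons (columns), from edgeR, with colour limited to −3 to 3. A black dot marks an adjusted p under 0.05, and grey marks Hdac11 where a compared group had at most 3 counts in all. The 26 dots of the first column and the 16 blue dotted cells of BM day 3 against day 1 involve the BM day 1 libraries.

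Kdm6b, which removes methyl groups from H3K27 (ENSMUSG00000018476, chromosome 11, 69398508 to 69413675 of GRCm38), was the most abundant of the 51 genes per kb of exon, at 59.6 CPM per kb over the means of the 7 groups. This mean includes 196 CPM per kb in BM day 1, against 19.7 to 59.7 in the other groups. In AM day 3, AM day 7 and BM day 3, Ehmt2 was higher per kb than Kdm6b. In BM day 1 Kdm6b stood at 1295, 1317, 1610, 1253 and 1340 CPM, against 225, 239, 225 and 282 CPM in AM day 1. All 5 BM libraries were far above all 4 AM libraries, 5.62-fold higher on the fitted scale (log2 fold change 2.49 ± 0.18 SE, edgeR adjusted p = 1.7e-10). An antisense gene overlaps 4.11% of its exon length.

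Kmt2d, which methylates H3K4 at enhancers (chromosome 15, 98831669 to 98871204), had the largest difference of its class. Its levels were 713, 765, 762, 717 and 895 CPM in BM day 1 and 107, 63.0, 193 and 93.4 CPM in AM day 1. The groups did not overlap (log2 fold change 2.76 ± 0.27, edgeR adjusted p = 1.6e-08). Its partner family member Kmt2c differed by 2.28 ± 0.20 and Kmt2a by 1.82 ± 0.29. Kmt2b, at 1.70 ± 0.64, was not called (edgeR adjusted p = 0.05 when rounded). Its BM libraries, at 199 to 295 CPM, were all above its AM libraries, at 59.3 to 83.3 CPM.

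Crebbp encodes the acetyltransferase CBP (chromosome 16, 4081328 to 4213997). BM day 1 libraries held 329, 270, 391, 215 and 304 CPM of it, and AM day 1 libraries 42.4, 63.8, 50.5 and 44.9 CPM. Each BM library was above each AM library (2.58 ± 0.21, edgeR adjusted p = 7e-10). Ep300, the gene of its close relative p300, differed by 1.72 ± 0.25, and Kat2a, a subunit of SAGA-type complexes and the most abundant acetyltransferase per kb, by 0.58 ± 0.28 without being called.

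Among the TET dioxygenases, Tet3 (chromosome 6, 83362373 to 83459084) read 202, 389.9, 261, 249.5 and 339.5 CPM in BM day 1 and 62.9, 31.5, 65.2 and 50.9 CPM in AM day 1. Tet2 (chromosome 3, 133463679 to 133545139) read 292, 257, 180.4, 193 and 265 CPM in BM and 66.1, 47.0, 84.9 and 61.0 CPM in AM. Neither gene's groups overlapped, with log2 fold changes of 2.46 ± 0.27 for Tet3 and 1.88 ± 0.24 for Tet2 (edgeR adjusted p = 1e-07 and 1.2e-06). Both methyltransferases differed less: the de novo enzyme Dnmt3a by 1.01 ± 0.22 (mean 175 ± 22.6 CPM in BM, n = 5, and 87.1 ± 23.2 in AM, n = 4, SD), and the maintenance enzyme Dnmt1 by 0.79 ± 0.23.

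Nsd1, an H3K36 methyltransferase (chromosome 13, 55209782 to 55318325), had 289, 349, 313, 294 and 380 CPM in BM day 1 and 109.5, 83.9, 122 and 80.4 CPM in AM day 1. These groups were separate as well (1.72 ± 0.18, edgeR adjusted p = 5.5e-08). Setd2 and Ezh1 were the other called genes of this class. Among those not called, Ezh2, the catalytic subunit of Polycomb complex PRC2, differed by 0.47 ± 0.70, Setdb2, an H3K9 enzyme, by 0.93 ± 0.88, and Ehmt2 (G9a), the most abundant of its class per kb, by 0.27 ± 0.16.

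Hdac5 is a class IIa deacetylase that shuttles between nucleus and cytoplasm (chromosome 11, 102194432 to 102230166). It stood at 167, 164, 87.3, 170.0 and 219.5 CPM in BM day 1 and at 45.5, 22.3, 54.4 and 32.8 CPM in AM day 1. The lowest BM value, in BM_day1.3, was still above every AM value (2.06 ± 0.29, edgeR adjusted p = 3.8e-06). Hdac7 was called with the larger fitted fold but with 0 counts in 2 of the 4 AM libraries and overlapping groups. The corepressor-bound Hdac3 and the most abundant deacetylase per kb, Hdac1, differed by −0.47 ± 0.35 and −0.23 ± 0.20, and the most abundant sirtuin, Sirt2, by 0.00 ± 0.23.

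**Figure D2:**
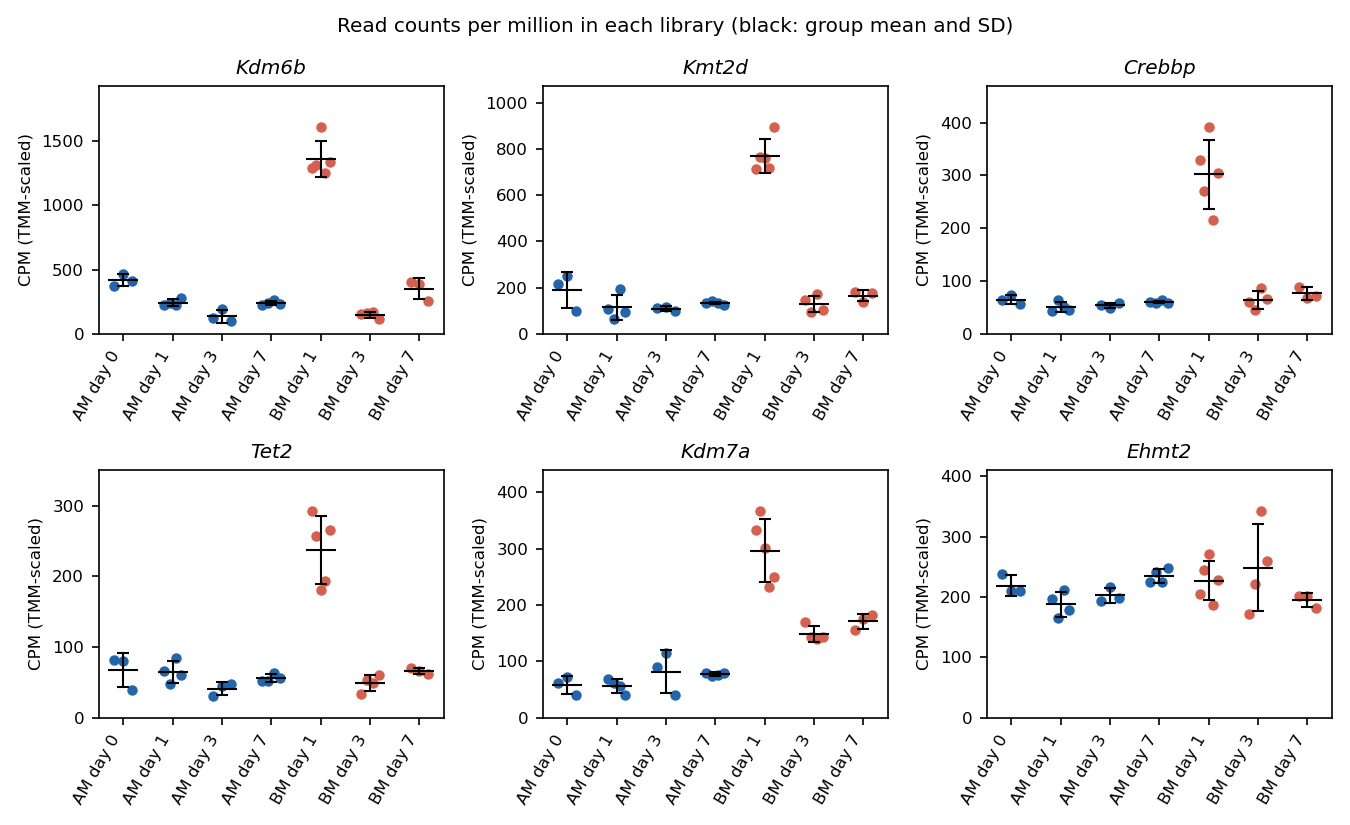
CPM on TMM-scaled library totals (y axis, linear from 0) of 6 genes in each library of the 7 groups (x axis), AM in blue and BM in red, with the group mean and SD in black. Kdm6b, Kmt2d, Crebbp, Tet2 and Kdm7a were highest in the 5 BM day 1 libraries, and Ehmt2 had group means from 188 to 249 CPM.

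The share of genes called higher at day 1 was larger among long genes, over all genes and over these 51. Over all tested genes with an annotated length it was 11.4% below 2 kb, 11.7% from 2 to 5 kb, 18.7% from 5 to 10 kb and 34.2% at 10 kb or more, classes chosen after the values were seen. Of the chromatin enzyme genes, 2 of 11, 6 of 19 and 18 of 21 were higher in the upper 3 classes, and none is shorter than 2 kb. As a description across genes, which share libraries and are not replicates, Spearman's rho between exon length and log2 fold change was 0.52 over the 51 genes and 0.10 over 17125 genes. Kmt2d, Kmt2c, Crebbp and Tet3 are in the longest class, while Kdm6b (2.49, 6954 bases of exon) and Hdac7 (3.03, 6755 bases, overlapping groups) had larger differences than Tet3 and Kmt2c at a shorter length. The part of transcript length in the result was not tested beyond these shares.

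**Figure D3:**
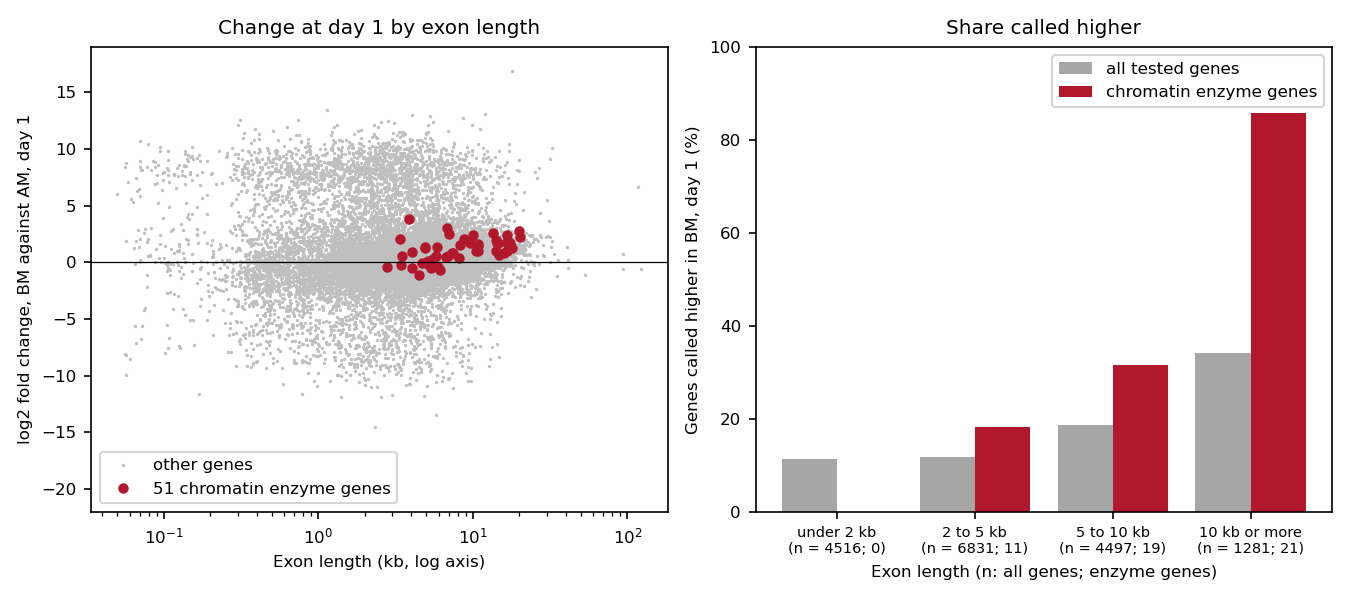
Left, log2 fold change of BM against AM at day 1 (y axis) by exon length in kb (log x axis) for all tested genes (grey) and the 51 chromatin enzyme genes (red). Right, percent of genes called higher in BM by length class: 34.2% of all genes and 18 of 21 chromatin enzyme genes at 10 kb or more.

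Other values moved with the same libraries. Transcripts of 69 replication-dependent histone genes, which lack a poly(A) tail, together reached 681.5 to 1970 CPM in the BM day 1 libraries, compared with 54.4 to 88.0 in AM day 1 and at most 328 in any other library. For the 51 enzyme genes the sum was 7054 to 7868 CPM in the BM day 1 libraries, and elsewhere 2276 to 4115 CPM. The macrophage marker sum was 6497 to 8459 CPM in BM day 1 and 13860 to 25240 in AM day 1, with 3 of its 5 genes lower in every BM library and 1, Csf1r, higher. Of 8 neutrophil and 8 fibroblast or endothelium markers, 2 each were higher in every BM library. Their sums were 521 to 1283 against 106 to 588 CPM and 174 to 413 against 20.9 to 74.2 CPM. The 2 neutrophil markers were Csf3r (205 to 339 against 29.1 to 77.3 CPM) and Ngp (8.99 to 75.3 against 0 to 8.02 CPM). Ly6g, a defining neutrophil marker, was at 0 to 8.02 CPM in BM day 1 and 0 to 1.32 CPM in AM day 1. The part of these differences in the enzyme result was not tested, and Y-linked level and identifier prefix cannot be told apart from cell type at day 1. With Y-linked RNA added to the model as a covariate, 23 of the 51 were called. Y-linked RNA was 191 to 217 CPM in AM day 1 and 7.75 to 38.4 CPM in BM day 1. This fit therefore cannot separate it from cell type, and the share of all genes called in it is not given here.

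**Figure D4:**
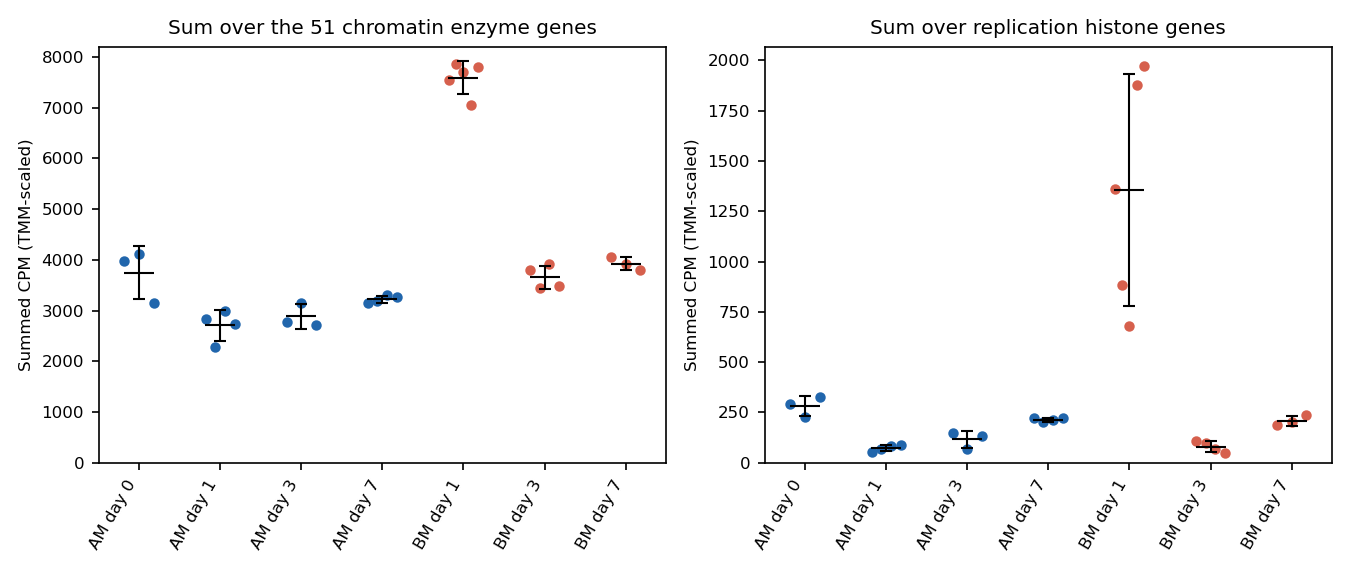
Summed CPM (y axes, linear from 0) of the 51 chromatin enzyme genes (left) and of 69 replication histone genes (right) in each library of the 7 groups, with the group mean and SD in black. The 5 BM day 1 libraries were above all others in both, at 7054 to 7868 and 681.5 to 1970 CPM.

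At day 3 the difference between BM and AM was smaller and covered 3 of the 51 genes, all higher in BM: Kdm3b, Ep300 and Hdac5. Among all genes 3.98% were called, 0.997% as higher and 2.99% as lower. The part of monocyte and recruited macrophage marker RNA in AM day 3 (928 to 2669 CPM) in this result was not tested. Ep300 (chromosome 15, 81585351 to 81652077) was at 165, 129, 192 and 126 CPM in BM day 3 and at 81.9, 77.4 and 68.2 CPM in AM day 3. Kdm3b, an H3K9 demethylase, was at 127, 103, 145 and 126 CPM in BM and 71.7, 76.0 and 47.9 CPM in AM. Neither gene's groups overlapped. The differences were 1.02 ± 0.28 for Ep300 and 0.94 ± 0.25 for Kdm3b (edgeR adjusted p = 0.039 and 0.035). Hdac5 differed by 1.10 ± 0.31 (edgeR adjusted p = 0.046) with 1 of its 4 BM libraries, at 87.05 CPM, below the highest AM library, at 96.6 CPM.

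These calls depended on the fit. With the compared groups fitted alone, or with a covariate for Y-linked RNA, 0 of 51 genes were called, and DESeq2 called 7. Leaving out 1 library at a time gave 0 to 4, with 0 for AM_day3.1, AM_day3.3, AM_day7.4, BM_day3.3, BM_day7.1 or BM_day7.2. Exons of Kdm3b overlap another gene over 24.6% of their length, on the opposite strand, and the strand setting of the counting is not given in the sources used here.

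At day 7, Kdm7a, a demethylase of H3K9 and H3K27 (chromosome 6, 39136623 to 39206789), was higher in BM. Its BM libraries held 155, 175.5 and 182 CPM and its AM libraries 80.1, 73.2, 76.5 and 79.2 CPM. Every BM library was above every AM library (1.15 ± 0.26, edgeR adjusted p = 0.012). It was the 1 gene of 51 called by edgeR (DESeq2 called 2, both higher), where 1.77% of all genes were called, 1.48% as higher and 0.286% as lower. The call was lost without BM_day7.2 or BM_day7.3 (largest adjusted p = 0.071), and fitting AM and BM day 7 alone called 21 of the 51, 18 higher and 3 lower. The 1.77% above is from the fit of all 26 libraries. The share of all genes called with the day 7 groups alone is not given here. Kdm7a was also higher at day 1 (2.39 ± 0.24) and stood at 0.87 ± 0.26 at day 3 (edgeR adjusted p = 0.059), where BM libraries held 170.2, 143, 139 and 144 CPM and AM libraries 89.8, 115 and 39.8 CPM.

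In alveolar macrophages, 5 chromatin enzyme genes fell between day 0 and day 1 and none rose. Among all genes 6.28% were called, 3.06% as lower and 3.22% as higher. The median log2 change was −0.45 over the 51 genes and −0.20 over all tested genes. The 5 were Kdm3b, Kdm6b, Hdac5, Kmt2c and Kmt2e.

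Kdm3b fell from 122, 129 and 66.3 CPM to 47.6, 33.2, 47.3 and 60.1 CPM (−1.17 ± 0.25, edgeR adjusted p = 0.0028). Hdac5 fell from 96.7, 89.0 and 83.2 CPM to 45.5, 22.3, 54.4 and 32.8 CPM (−1.21 ± 0.30, edgeR adjusted p = 0.013). Kmt2c, an H3K4 methyltransferase acting at enhancers (chromosome 5, 25271798 to 25498783), fell from 114, 119 and 63.4 CPM to 62.2, 42.4, 56.4 and 46.9 CPM (−0.93 ± 0.21, edgeR adjusted p = 0.0064). In each of the 3 every day 0 library was above every day 1 library, although the third day 0 library came close for Kdm3b and Kmt2c. Kmt2e, a family member not known as an active methyltransferase and the most abundant of its class per kb, fell from 180.0, 189.5 and 149 CPM to 84.6, 101, 76.3 and 109.5 CPM (−0.90 ± 0.20, edgeR adjusted p = 0.0042). AM day 1 is also the reference of the day 1 comparison with BM, so both use the same low AM day 1 values. The counts were 3 without AM_day0.1 or AM_day0.2, 8 without AM_day1.3, and 12 without both BM_day1.3 and BM_day3.1.

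The H3K27 demethylase gene Kdm6b was called in 4 of the 5 comparisons within AM. It fell from 373, 465 and 408 CPM at day 0 to 225, 239, 225 and 282 CPM at day 1 (−0.78 ± 0.19, edgeR adjusted p = 0.012). At day 3 it stood at 119, 194 and 97.05 CPM, lower than at day 0 (−1.60 ± 0.21, adjusted p = 1.3e-05 by the same test) and than at day 1 (−0.83 ± 0.20, 0.04). No day 3 library reached the lowest day 0 or day 1 library. At day 7 Kdm6b was at 227.5, 242.5, 261 and 234 CPM, higher than at day 3 (0.82 ± 0.20, edgeR adjusted p = 0.026). The AM day 3 libraries also held more monocyte and recruited macrophage marker RNA than any AM library of days 0, 1 or 7. The part of that RNA in these Kdm6b differences was not tested. Against day 0 the day 7 difference was −0.78 ± 0.19 (edgeR adjusted p = 0.052).

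By edgeR it was the 1 of 51 genes called in AM day 3 against day 0 (2.51% of all genes called, 0.723% as lower and 1.78% as higher), in AM day 3 against day 1 (0.834%, 0.21% as lower and 0.624% as higher) and in AM day 7 against day 3 (1.59%, 0.233% as higher and 1.35% as lower). DESeq2 called 2, 1 and 1 genes in these comparisons. The fall from day 1 to day 3 was lost with library size alone, the compared groups alone or the replicate block, and without 14 of the 26 libraries left out in turn. The rise from day 3 to day 7 was lost on adding a covariate for Y-linked RNA and without AM_day3.1, AM_day3.3, AM_day7.2, AM_day7.3 or AM_day7.4. No member was called in AM day 7 against day 0 by edgeR, where 0.677% of all genes were called, 0.408% as higher and 0.268% as lower. At an unadjusted p under 0.05 there were 0 higher and 5 lower, and DESeq2 called 1 lower. AM day 0 served as reference for 3 of these comparisons.

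In BM-derived macrophages 16 of the 51 genes fell between day 1 and day 3 and 1, Sirt7, rose, where 25.9% of all genes were called, 15.2% as lower and 10.6% as higher. The median log2 change was −0.43 over the 51 genes and −0.05 over all genes. The falls covered 4 of 14 lysine demethylases, 3 of 4 DNA methyltransferases and TET dioxygenases, 4 of 6 of the H3K4 family, 2 of 8 of the H3K27, H3K36 and H3K9 methyltransferases, and 3 of 4 acetyltransferases. None of the 9 zinc-dependent deacetylases was called (1 higher and 1 lower at an unadjusted p under 0.05). These are the same BM day 1 libraries as in the comparison with AM, so the values that follow give no independent support.

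Kdm6b fell to 151, 160, 167 and 116 CPM at day 3, from a mean of 1363 ± 142 CPM (SD, n = 5), a 9.18-fold decline (−3.20 ± 0.19, edgeR adjusted p = 2.2e-11). Kmt2d fell to 145, 95.5, 170.4 and 104 CPM from 770.2 ± 73.9 (−2.58 ± 0.27, edgeR adjusted p = 1.3e-07). Both declines left day 3 libraries far below every day 1 library. Tet2 fell to 33.6, 53.0, 49.5 and 60.7 CPM (−2.27 ± 0.24), Crebbp to 59.4, 45.6, 86.3 and 65.9 CPM (−2.23 ± 0.21) and Nsd1 to 95.0, 134, 101 and 96.4 CPM (−1.61 ± 0.18), with a largest edgeR adjusted p of 3.7e-07 among the 3. Day 3 and day 1 libraries did not overlap in any of them.

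Sirt7, a nuclear sirtuin (74.0, 67.7, 61.3, 97.9 and 97.1 CPM at day 1), rose to 140.5, 114.5, 165 and 104.5 CPM. All day 3 libraries were above all day 1 libraries (0.72 ± 0.18, edgeR adjusted p = 0.006), but the call was lost without the low-count filter and with the compared groups fitted alone. The latter fit called 11 of the 51 genes, all lower. Of the 26 genes called higher in BM than in AM at day 1, 15 fell and 11 were not called here. Hdac5, one of the 11, was at 162 ± 47.4 CPM in BM day 1 (n = 5) and 158 ± 48.4 in BM day 3 (n = 4, SD), and Dnmt1 had means of 125 and 120.3 CPM. Kdm3b stood at −0.52 ± 0.22 (edgeR adjusted p = 0.08). Hdac5 and Kdm3b were among the 3 called against AM at day 3. At 10 kb or more of exon, 13 of 21 chromatin enzyme genes and 26% of all genes fell.

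Between days 3 and 7 in BM, Kdm6b rose and was the 1 gene of 51 called by edgeR (DESeq2 called 1 higher and 2 lower), where 3.98% of all genes were called, 3.09% as higher and 0.898% as lower. It reached 406.5, 391 and 256 CPM (1.24 ± 0.19, edgeR adjusted p = 0.00034). All 3 day 7 libraries were above all day 3 libraries, and the lowest, BM_day7.3, is the library with the low alveolar macrophage marker sum of 2315 CPM. The part of that difference in the result was not tested. The call was lost when the compared groups were fitted alone. With all BM day 1 libraries left out, an alternative chosen after seeing the data, 4 genes were called, 2 higher and 2 lower. Whether the change from day 3 to day 7 differed between BM and AM was tested as an interaction: 0 of 51 genes were called by edgeR (of all genes 0.362%, 0.338% as higher and 0.0233% as lower), 1 higher and 4 lower had an unadjusted p under 0.05, and DESeq2 called 2, both lower. For Kdm6b the interaction was 0.42 ± 0.27.

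Over the 7 groups the Kdm6b level was highest in BM day 1, followed by AM day 0 (415 ± 46.4 CPM), BM day 7 (351 ± 82.9), AM day 1 (243 ± 27.1), AM day 7 (241 ± 14.3), BM day 3 (148.5 ± 22.5) and AM day 3 (137 ± 50.9), each as mean ± SD. Neighbours in that order overlapped from AM day 0 to AM day 7 and again between BM day 3 and AM day 3, whereas BM day 1 and AM day 0, and AM day 7 and BM day 3, did not. Apart from the low-level genes Hdac7 (1.28 CPM in its lowest group and 51.2 in its highest), Sirt5 (0.706 and 6.97 CPM) and Hdac11, the ratio of the highest to the lowest group mean was greatest for these genes: 9.97 for Kdm6b, 7.09 for Kmt2d, 5.99 for Crebbp, 5.80 for Tet2 and 5.48 for Tet3. At the other end it was 1.24 for Hdac1 and 1.32 for Ehmt2. By the mean over the 7 groups, BM day 1 included, the 4 most abundant genes per kb held both patterns. Kdm6b was at 59.6 CPM per kb, then Ehmt2 at 39.5, Sirt2 at 24.4 and Hdac1 at 23.4.

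The members described without a call varied within their groups. Hdac3 had group means from 23.8 CPM in BM day 1 to 41.3 in BM day 3, the latter with 77.7 CPM in BM_day3.1 and 25.6 to 33.3 in its other libraries. Ezh2 had group means from 17.8 to 31.6 CPM, and Setdb2 from 9.43 to 18.9 CPM. None of these genes was called in any of the 11 comparisons. Depth and gene detection limited the low members: 7 of the 51 were at 0 counts in BM_day3.1, 5 in BM_day1.3 and 4 each in AM_day1.2, AM_day1.3 and BM_day3.3. Hdac11, the least abundant, had 0 counts in all 4 BM day 3 libraries. With a floor of 3 counts over that group (0.0402 CPM) it was at least 20.5-fold higher in BM day 7, at least 8.38-fold higher in AM day 3 and at least 8.21-fold higher in BM day 1. These bounds cover counting error only, and Hdac11 was called in no comparison. The bounds for AM day 3 and BM day 1 each rest on a single library. All Hdac11 counts of AM day 3 were in AM_day3.1 (13), and all of BM day 1 in BM_day1.4 (24). Setting Hdac11 to its bound left the medians over the 51 genes as given.

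Partners and relatives of these enzymes were called at about the rate of all genes at day 1. From a list of 90 other chromatin genes (Polycomb, COMPASS, corepressor, DNA methylation and acetyl-reader partners and further enzymes), 89 were tested, and 17 were higher and 9 lower in BM than in AM, or 19.1% and 10.1% beside 15.2% and 13.8% of all genes. Jarid2, a PRC2 partner, was higher by 3.83 ± 0.29 (20.5 CPM in AM and 292 in BM), Kat6a, an acetyltransferase, by 2.44 ± 0.32 and Dot1l, the H3K79 methyltransferase, by 2.23 ± 0.25. Lower in BM were Dpy30, a COMPASS core subunit (−3.34 ± 0.85), Sap18, a corepressor subunit (−2.28 ± 0.62), and Mbd3 of the NuRD complex (−2.02 ± 0.64). At day 3 Jarid2 was higher and Aebp2 lower, and at day 7 Jarid2 alone was called (1.25 ± 0.29, edgeR adjusted p = 0.014). In AM the list gave 0 higher and 5 lower at day 1 against day 0, among them Cbx7 and Kat6a. In AM day 7 against day 3, Kdm5c was higher. Y-linked RNA was 194 to 227 CPM in AM day 3 and 0.152 to 4.09 CPM in AM day 7. Y-linked level and day therefore cannot be told apart in that comparison. In BM day 3 against day 1, 8 were higher and 16 lower (27% called beside 25.9% of all genes), and in BM day 7 against day 3 Aebp2 was higher. The list gave 0 in AM day 7 against day 0, AM day 3 against day 1 and the interaction.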

How the data were processed

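RNA-seq read counts per Ensembl gene were deposited by the authors as 1 table of raw counts with 26 library columns. Per the submitters' processing notes the tools were featureCounts 2.0.0 and HISAT2 2.1.0, with Trimmomatic 0.39 and FastQC 0.11.9, on the build GRCm38. Per the labels the libraries were stranded and poly(A)-selected, and the strand setting of the counting is not given in the sources used here. The deepest library has 80816742 counts and the shallowest 9176202, which limits the precision for low genes.

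Counts were fitted here with edgeR 4.0.16 in R 4.3.3: TMM scaling, filterByExpr (minimum count 10, leaving 17143 genes), 1 coefficient for each of 7 groups and the robust quasi-likelihood test. Each of 11 comparisons had its p-values adjusted over all tested genes (Benjamini-Hochberg), with 0.05 as the threshold. All 26 columns have a sample, and 0 were left without one. Standard errors are the log2 fold change divided by the root of F. CPM use TMM-scaled totals, and CPM per kb the union exon length of GENCODE M21, which gave symbols and positions. The procedure was tested on simulated counts.

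The 51 genes, the classes and the other lists were chosen with earlier results of these data known. Values in every library are given for the called gene of largest change in each class and comparison (at least 5 CPM in the higher group, no overlap), for Kdm6b, Tet2, Dnmt3a, Ezh2, Setdb2 and Hdac3, and for the most abundant gene of each class per kb; some of these are shortened to means or ranges, and other genes were singled out after their values were seen. Of the wider list of 90 genes up to 3 per comparison are named, by size of change, and results of 1 gene are not reported here. Alternatives were DESeq2 1.42.0 (Wald test), its size factors, library size alone, no filter, the compared groups alone, the replicate number as a block, the Y-linked level as a covariate, and leaving out libraries. Promoter windows are from RefSeq on GRCm38.p6.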

Additional observations from a re-analysis of the deposited data

Results flagged for a closer look

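For 22 of the genes, the highest and lowest libraries were compared with the rest of their group in the 4 groups of 4 or 5 libraries, 88 groups of values in all, and 6 values lay far from the others, where chance alone gives about 1 in 20. Kdm6b was at 1610 CPM in BM_day1.3 against 1253 to 1340 in the other 4 libraries, and Kmt2d at 895.1 CPM in BM_day1.5 against 713 to 765. Setdb2 was at 5.224 CPM in BM_day1.4 against 19.6 to 24.9. In BM_day3.1, the library with the high fibroblast and endothelium sum, Hdac3 was at 77.74 CPM against 25.6 to 33.3 and Kdm7a at 170.2 CPM against 139 to 144. Nsd1 was at 133.9 CPM in BM_day3.2 against 95.0 to 101. The calls of Kdm6b, Kmt2d, Nsd1 and Kdm7a at day 1 and in BM day 3 against day 1 held in each of the 34 alternatives run on them.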

How the results depend on the processing

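Of 56 calls of single genes, 35 held in every alternative, 21 were lost in at least 1 and 0 changed sign. In BM against AM at day 1 all alternatives gave 21 to 33 called genes against 26. Shares of all genes called in each alternative are not given here. Numbers of called genes that moved by over 1.5 times were these. With DESeq2: 7 (BM against AM, day 3), 2 (day 7), 2 (AM day 3 against 0), 1 (AM day 7 against 0), 3 (BM day 7 against 3) and 2 (interaction). With DESeq2 size factors, BM day 7 against 3 gave 2. With library size alone it gave 2, AM day 7 against 0 gave 1 and AM day 3 against 1 gave 0. Without the low-count filter BM against AM at day 3 gave 1 and AM day 7 against 0 gave 1. With the compared groups alone: 0 and 21 (BM against AM, days 3 and 7), 5 and 6 (AM days 3 and 7 against 0), 0 (AM day 3 against 1), 6 (AM day 7 against 3), 11 (BM day 3 against 1) and 0 (BM day 7 against 3). With the Y-linked covariate, BM against AM at day 3 and AM day 7 against 3 gave 0. Without BM_day1.3 and BM_day3.1: 12, 3 and 1 (AM days 1, 3 and 7 against 0) and 2 (BM day 7 against 3). Without all BM day 1 libraries, BM day 7 against 3 gave 4. Leaving out 1 library in turn gave 0 to 4 and 0 to 1 (BM against AM, days 3 and 7), 3 to 8, 1 to 3 and 0 to 1 (AM days 1, 3 and 7 against 0), 0 to 1 (AM day 3 against 1 and day 7 against 3), 15 to 19 (BM day 3 against 1) and 1 to 2 (BM day 7 against 3). The cause was not tested. Libraries of the same replicate number had a mean correlation of deviations of −0.0161 to 0.0134. By the differing numbers in the column names it was −0.113 to 0.0928 over 45 pairs, a check added after seeing the data. Only 6 of these pairs set AM with BM of the same day (−0.0217 to 0.00932). So few pairs cannot show whether AM and BM libraries came from the same animals. With the replicate block, BM against AM at day 1 gave 24, BM day 3 against 1 gave 15 and AM day 3 against 1 gave 0. The interaction's median over the 51 genes was 0.05, and −0.04 with DESeq2 size factors or library size. Depth limits the genes with libraries at 0 counts.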
